A study of Homo sapiens with 8 samples.

Results

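The transcripts of the human mitochondrial genome were examined in Panc 10.05, an established cell line from a human pancreatic ductal adenocarcinoma. Members were all genes whose symbol begins with MT- in the deposited table, 37 of 58870 gene rows: 13 mRNAs, 2 rRNAs and 22 tRNAs. RNA sequencing had been done on 8 libraries, 4 from control cells and 4 from cells labelled ELAPOR1 overexpression, all from the same parental line. The labels give neither how ELAPOR1 was overexpressed, nor what the control cells carried, nor whether lines were clones or pools. They also do not say whether replicates were separate cultures, so p-values measure only the spread between these libraries, which may be technical. The title of the series places the comparison in a question on subtype and metabolic reprogramming, and these RNAs encode the core of the respiratory chain.

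The mitochondrial genome is a small circle that is transcribed along both strands into long precursors by the polymerase POLRMT with TFAM and TFB2M. Most mRNAs and both rRNAs are flanked by tRNAs, which are cut out of the precursor at their 5′ and 3′ ends, and this releases the mRNAs and rRNAs. The mRNAs encode subunits of complexes I, III and IV of the respiratory chain and of the ATP synthase, and the rRNAs and tRNAs serve their translation inside the organelle. Since all genes of a strand share a precursor, differences among mature RNAs of that strand are usually ascribed to processing and stability rather than to separate promoters.

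Several stretches of the genome bear on how the counts can be read, and they are shown first. Sequences and positions are from GENCODE release 29 on GRCh38, and the submitters' processing notes name hg38, the same assembly. Between the rRNAs and MT-ND1 lies the tRNA MT-TL1 (chrM:3230-3304, plus strand). It is shown whole because it separates the rRNAs from the mRNAs, and its capitals mark TGGCAGAGCCCGG, the element in which the termination factor MTERF1 binds. On either strand, 1 of the 22 tRNAs and 1 of the 37 members held this motif.
MT-TL1: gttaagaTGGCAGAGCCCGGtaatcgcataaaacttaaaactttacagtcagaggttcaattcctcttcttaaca

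Reading frames of mRNAs overlap by several bases at 2 places, where a read can lie in both genes. MT-ATP8 shares its last 46 bases with the start of MT-ATP6, and MT-ND4L shares its last 7 bases with the start of MT-ND4. Each pair is read from a joint mRNA. The counts of MT-ATP8, MT-ND4L and MT-ND4 were whole numbers in every library, so no division of reads shows in them. Those of MT-ATP6 were not all whole. MT-ATP6 also ends on the base where MT-CO3 begins (chrM:9207). The ends of MT-ATP8 (chrM:8513-8572) and MT-ND4L (chrM:10727-10766) are given on the plus strand, with the shared bases in capitals.
MT-ATP8 end: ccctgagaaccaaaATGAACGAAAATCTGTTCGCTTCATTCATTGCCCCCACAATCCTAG
MT-ND4L end: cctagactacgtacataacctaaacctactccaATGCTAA

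Mitochondrial genes also have near-identical copies in the nuclear genome. The pseudogene MTND2P28 on chromosome 1 is shown against MT-ND2 over 100 bases in which they differ at 5, the capitals marking the differing bases (chrM:4900-4999 and chr1:630070-630169, plus strand). Over the first 266 bases of the gene both were identical.
MT-ND2: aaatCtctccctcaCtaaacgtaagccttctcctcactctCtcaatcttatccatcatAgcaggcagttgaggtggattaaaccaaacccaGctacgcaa
MTND2P28: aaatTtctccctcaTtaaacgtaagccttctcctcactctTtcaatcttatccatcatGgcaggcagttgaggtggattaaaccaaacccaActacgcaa

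The 3′ ends of the mRNAs show how tightly the genome is packed. In 6 of the 13 mRNAs the gene ends within the stop codon, which adenines of the tail then complete, and 7 encode the stop in full. The last 24 bases are shown for MT-ND5 and MT-ND2, which rose most, for MT-CO1, which was not called, and for MT-ND1, with the encoded part of the stop in capitals (chrM:14125-14148, chrM:5488-5511, chrM:7422-7445 and chrM:4239-4262, plus strand).
MT-ND5: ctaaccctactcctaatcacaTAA
MT-ND2: ccccttttatactaataatcttaT
MT-CO1: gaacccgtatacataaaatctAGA
MT-ND1: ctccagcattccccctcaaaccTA
Both kinds of end occurred among the larger and the smaller changes: MT-ND5 and MT-CO1 encode their stop in full, and MT-ND2 and MT-ND4 do not.

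Libraries held 16558600 to 18128757 estimated counts in control and 13765509 to 17258166 in ELAPOR1 cells. ELAPOR1, listed under its older symbol KIAA1324, had 1 to 4 counts in control and 5910 to 7368 in ELAPOR1 libraries, as each label has it. All 6 epithelial and ductal markers were present (summed level 11929 to 13196 CPM in control and 11159 to 11510 CPM in ELAPOR1 libraries), while COL1A2, DCN and LUM of 5 fibroblast, CD3E and MS4A1 of 5 leukocyte, CDH5 of 4 endothelial and 4 of 5 acinar and islet markers had no count. Summed levels were at most 4.27 CPM for fibroblast and 2.13 CPM for endothelial markers, and the 73.3 to 88.4 CPM of the leukocyte list were held mainly by CD68, which is not confined to leukocytes.

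Mitochondrial mRNAs took a larger share of the counts in every ELAPOR1 library. The 13 mRNAs made up 3.80, 3.80, 3.71 and 3.73% of all counts in the 4 control libraries and 4.19, 4.12, 4.33 and 4.22% in the 4 ELAPOR1 libraries, so that the groups did not overlap (means 3.76 ± 0.0459% and 4.21 ± 0.0866%, SD, n = 4 each). The 2 rRNAs did not move with them. They took 0.591 ± 0.0151% in control and 0.596 ± 0.00669% in ELAPOR1 libraries, and the groups overlapped. The 22 tRNAs were listed at 0 in all 8 libraries. These shares are relative to the other RNA of the library, and more mitochondria per cell and more mitochondrial RNA per mitochondrion cannot be told apart in them.

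In the fit across all genes, 10 of the 13 mRNAs rose, none fell and 3 were not called (edgeR's quasi-likelihood test, Benjamini-Hochberg adjusted p under 0.05, which defines a call throughout). Over all 13860 tested genes 44.7% were called, 22.6% as higher and 22.1% as lower in ELAPOR1 cells, and 39.2% had CPM ranges that were apart between groups. CPM are counts per 1000000, scaled between libraries by TMM. Of the mRNAs, 7 of 13 did not overlap between groups. Their median log2 fold change was 0.21, from -0.0078 to 0.45, beside 0.00087 over all tested genes. All members with counts passed the filter on low values in both groups, and the members and the comparison were chosen with earlier results of these data known.

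**Figure D1:**
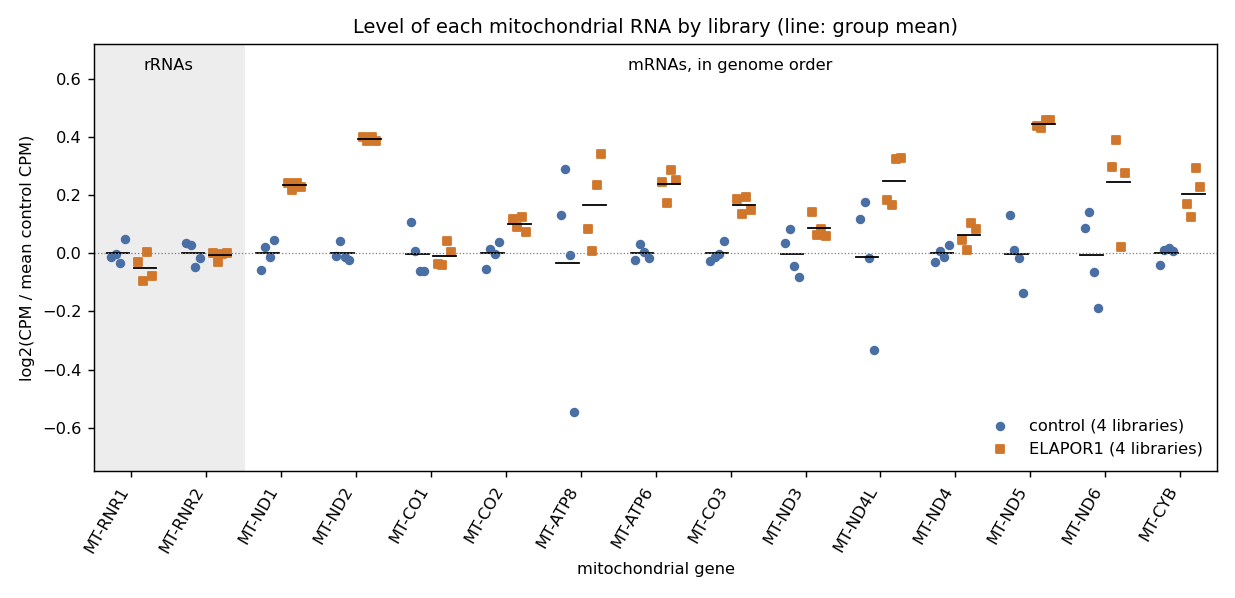
Level of each mitochondrial rRNA and mRNA in each library, as log2 of its CPM over the mean control CPM, with 4 control libraries (circles) and 4 ELAPOR1 libraries (squares), and a line at the mean of the plotted values. MT-ND2 and MT-ND5 lie highest above control, and control replicate 4 lies lowest for MT-ATP8, at 190 CPM, and for MT-ND4L, at 426 CPM.

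Complex I, which takes electrons from NADH, has 7 subunits encoded here, and 6 of their mRNAs rose. MT-ND5, a membrane subunit at the far end of the proton-pumping arm, changed most of all members. It stood at 1371, 1262, 1237 and 1140 CPM in control and at 1697, 1689, 1720 and 1720 CPM in ELAPOR1 libraries. Every ELAPOR1 library was above every control library, and the ELAPOR1 libraries lay closer together. The rise was 36.2%, a log2 fold change of 0.45 (SE 0.041, adjusted p = 2.8e-07).

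MT-ND2, another membrane subunit of the pumping arm, stood at 2906, 3009, 2899 and 2877 CPM in control and at 3857, 3818, 3855 and 3823 CPM in ELAPOR1 libraries. Both groups were tight and far apart, and the log2 fold change was 0.39 (SE 0.024, adjusted p = 4.6e-15), a rise of 31.3%. MT-ND1, a membrane subunit next to the quinone site, stood at 3488, 3689, 3604 and 3748 CPM against 4294, 4228, 4297 and 4259 CPM. The groups did not overlap, and the log2 fold change was 0.23 (SE 0.025, adjusted p = 2.6e-09).

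The other members of complex I changed less or varied more. MT-ND6, the only mRNA encoded on the opposite strand, was low, at 48.7, 50.6, 43.8 and 40.2 CPM in control and 56.3, 60.1, 46.5 and 55.5 CPM in ELAPOR1 libraries. ELAPOR1 replicate 3 fell within the range of the controls. The log2 fold change was 0.25 (SE 0.080, adjusted p = 0.018), and the call was lost without control replicate 3 (adjusted p = 0.054), without ELAPOR1 replicate 1 (0.055) or without ELAPOR1 replicate 4 (0.054). Strand use in counting is not given in the sources used here, and without it reads of MT-ND6 and of RNA running antisense through it from the MT-ND5 side cannot be told apart.

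MT-ND3 stood at 561 to 630 CPM in control and 620 to 656 CPM in ELAPOR1 libraries, and the ranges overlapped (log2 fold change 0.088, SE 0.032, adjusted p = 0.024). MT-ND4 stood at 6426 to 6693 CPM and at 6606 to 7055 CPM, with overlapping ranges and the smallest change that passed (0.062, SE 0.025, adjusted p = 0.046). The MT-ND3 call was lost without control replicate 3 (adjusted p = 0.10), control replicate 4 (0.080) or ELAPOR1 replicate 1 (0.12). The MT-ND4 call was lost in 6 of the 8 fits that leave out a library (all but those without control replicate 4 or ELAPOR1 replicate 2), as well as with DESeq2 size factors (adjusted p = 0.057), upper-quartile scaling (0.10) or no filter beyond 1 count (0.072).

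MT-ND4L, whose reading frame precedes MT-ND4 on their joint mRNA, was not called. It stood at 582, 607, 531 and 426 CPM in control and 608, 601, 671 and 674 CPM in ELAPOR1 libraries. Control replicate 4 was far below the others. The log2 fold change was 0.25 (SE 0.12, adjusted p = 0.14, 95% interval -0.034 to 0.54), and it was 0.16 without control replicate 4. With limma-voom, which tests log2 CPM with precision weights, MT-ND4L was called (0.26, adjusted p = 0.0040).

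The ATP synthase has 2 mitochondrially encoded subunits, both in its membrane part. MT-ATP6, the subunit that forms the proton path with the rotor ring, rose from 1931, 2006, 1968 and 1942 CPM to 2328, 2213, 2394 and 2336 CPM. The groups did not overlap (log2 fold change 0.24, SE 0.027, adjusted p = 3.4e-09). MT-ATP8, whose frame runs into that of MT-ATP6 in the sequence shown above, stood at 304, 338, 276 and 190 CPM in control and 294, 279, 326 and 351 CPM in ELAPOR1 libraries. It was not called (0.17, SE 0.19, adjusted p = 0.51, 95% interval -0.28 to 0.62), and without control replicate 4 its log2 fold change was 0.030.

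MT-ATP8 and MT-ND4L are the shortest mRNAs, at 207 and 297 bases, and they varied most between the control libraries, with coefficients of variation of 22.9 and 14.9% against 1.69 to 10.3% for the other mRNAs and the rRNAs. Between the ELAPOR1 libraries MT-ND6 varied most, just above MT-ATP8 (10.3%), and MT-ND4L was at 6.13%. Against the median of the other control libraries, control replicate 4 was lower by 0.68 for MT-ATP8 and by 0.45 for MT-ND4L on the log2 scale. For 6 nuclear genes of 200 to under 350 bases with a mean of at least 5 CPM the median of that difference was -0.10, and for 13 of 350 to under 500 bases it was 0.028. In control replicates 1 to 3 the 6 genes were at -0.0040, 0.33 and -0.033, and MT-ATP8 at 0.14, 0.29 and -0.14. In ELAPOR1 replicates 1 to 4 they were at -0.18, -0.084, 0.20 and 0.098, and MT-ATP8 at -0.15, -0.23, 0.15 and 0.25. The 13 longer genes stayed between -0.11 and 0.062 in all libraries. The part of transcript length or of control replicate 4 in the missing calls was not tested.

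Complex III, which passes electrons to cytochrome c, has a single mitochondrially encoded subunit, cytochrome b. Its mRNA MT-CYB stood at 1756, 1817, 1830 and 1817 CPM in control and at 2029, 1967, 2213 and 2116 CPM in ELAPOR1 libraries. The groups did not overlap, and the log2 fold change was 0.21 (SE 0.029, adjusted p = 7.4e-07).

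Complex IV, cytochrome c oxidase, has 3 subunits encoded here, and their mRNAs changed least as a group in the main fit. MT-CO1, the catalytic subunit with heme and copper, was the most abundant member in counts. It stood at 9942, 9272, 8836 and 8849 CPM in control and at 8995, 8962, 9490 and 9255 CPM in ELAPOR1 libraries. The groups overlapped throughout, with control replicate 1 the highest of all 8 libraries. The log2 fold change was -0.0078 (SE 0.031, adjusted p = 0.87), with a 95% interval from -0.072 to 0.057, so a change of the size seen for MT-ND2 or MT-ND5 lies outside it.

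MT-CO2, which receives electrons from cytochrome c, rose from 5201, 5452, 5390 and 5543 CPM to 5853, 5746, 5886 and 5680 CPM (log2 fold change 0.10, SE 0.025, adjusted p = 0.0011). MT-CO3 rose from 3672, 3708, 3734 and 3849 CPM to 4255, 4111, 4282 and 4150 CPM (0.17, SE 0.025, adjusted p = 1.3e-06). Neither overlapped between groups, although both changes were small in the main fit.

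**Figure D2:**
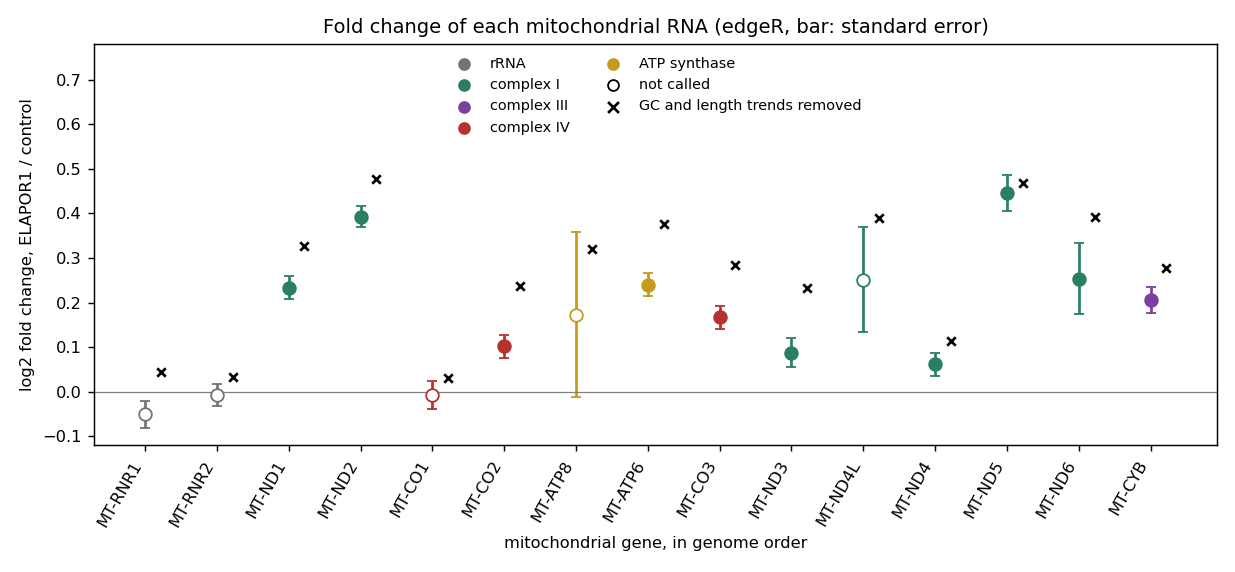
Log2 fold change of ELAPOR1 over control for each mitochondrial rRNA and mRNA in genome order, with edgeR's standard error (bars), filled where called and coloured by complex. Crosses give the value after trends of each library with GC content and length were removed, which lie above the main value for all 15 genes and reach 0.48 for MT-ND2.

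Removing smooth trends of each library with GC content and transcript length, a setting chosen after the data were seen, raised the median of the 13 mRNAs from 0.21 to 0.32. With it 11 mRNAs were called higher, MT-ND4L being added (0.39, adjusted p = 0.037), and MT-CO1 (0.030) and the rRNAs (0.044 for MT-RNR1, 0.032 for MT-RNR2) remained uncalled. MT-CO2 went from 0.10 in the main fit to 0.24 with this setting. MT-ND5 moved less with this setting (0.47) than without control replicate 4 (0.40) or control replicate 1 (0.49).

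Both rRNAs, the RNA core of the mitochondrial ribosome, stayed uncalled. MT-RNR2, of the large subunit, stood at 5728, 5708, 5410 and 5534 CPM in control and at 5603, 5483, 5590 and 5603 CPM in ELAPOR1 libraries. Its log2 fold change was -0.0066 (SE 0.025, adjusted p = 0.86, 95% interval -0.057 to 0.044). MT-RNR1, of the small subunit, stood at 358, 361, 353 and 374 CPM in control and 354, 338, 363 and 343 CPM in ELAPOR1 libraries. Its log2 fold change was -0.050 (SE 0.030, adjusted p = 0.18, 95% interval -0.11 to 0.011). Neither rRNA passed an unadjusted p of 0.05 in the main fit, and both the DESeq2 Wald test and limma-voom called 0 of the 2. Without control replicate 1, 1 of the 2 passed the unadjusted threshold with edgeR, and 0 were called. The sign was not fixed, since MT-RNR2 and MT-CO1 were at 0.015 and 0.014 with total count scaling, and both rRNAs were above 0 with GC and length trends removed.

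The 22 tRNAs, 14 transcribed in the direction of most mRNAs and 8 in the other, were all listed at 0 in all 8 libraries. Counting 0 allows up to 3 counts, or 0.165 to 0.218 CPM of the library total (counting error only). This bounds the counts and not the RNA level in the cells. The tRNA genes are 59 to 75 bases long. Of 1284 other genes of at most 75 bases in the table, 3 had any count, and none had more than 3, so short genes as a class were almost without counts in these libraries. No level or change of the tRNAs was detectable from these data, and the sequence of MT-TL1 shown above belongs to a gene with no count.

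Ratios within a library do not depend on scaling between libraries. Those with rRNAs can depend on how RNA was selected for the libraries, which is not given in the sources used here. The summed rRNA counts over the summed mRNA counts were at -2.65, -2.66, -2.70 and -2.67 on the log2 scale in control and -2.81, -2.81, -2.85 and -2.82 in ELAPOR1 libraries. The groups did not overlap, with a difference of -0.15. MT-RNR1 over MT-RNR2 overlapped between groups, at -3.95 ± 0.050 for control and -4.00 ± 0.038 for ELAPOR1 (SD over 4 libraries).

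The mRNAs of complex IV over those of complex I were at 0.29, 0.22, 0.22 and 0.24 in control and 0.091, 0.095, 0.11 and 0.077 in ELAPOR1 libraries, again without overlap. In summed CPM, complex I mRNAs were 15.7% higher in ELAPOR1 cells (15539 ± 208 and 17981 ± 275), complex III, which is MT-CYB alone, 15.3% higher, the ATP synthase 17.5% higher (2239 ± 86.6 and 2630 ± 101) and complex IV 4.38% higher (18362 ± 358 and 19166 ± 353, SD, n = 4 each). All 4 sums separated the groups, but complex IV only barely. Its highest control library was at 18815 CPM and its lowest ELAPOR1 library at 18819 CPM.

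MT-ND6 over the 12 mRNAs of the other strand was at -9.70 ± 0.14 for control and -9.59 ± 0.19 for ELAPOR1 (SD over 4 libraries). The groups overlapped, and a difference between strands was smaller than the spread. Precursors from both strands are cut by the same enzymes, but only MT-ND6 reports on its strand here, since the tRNAs of that strand had no counts.

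**Figure D3:**
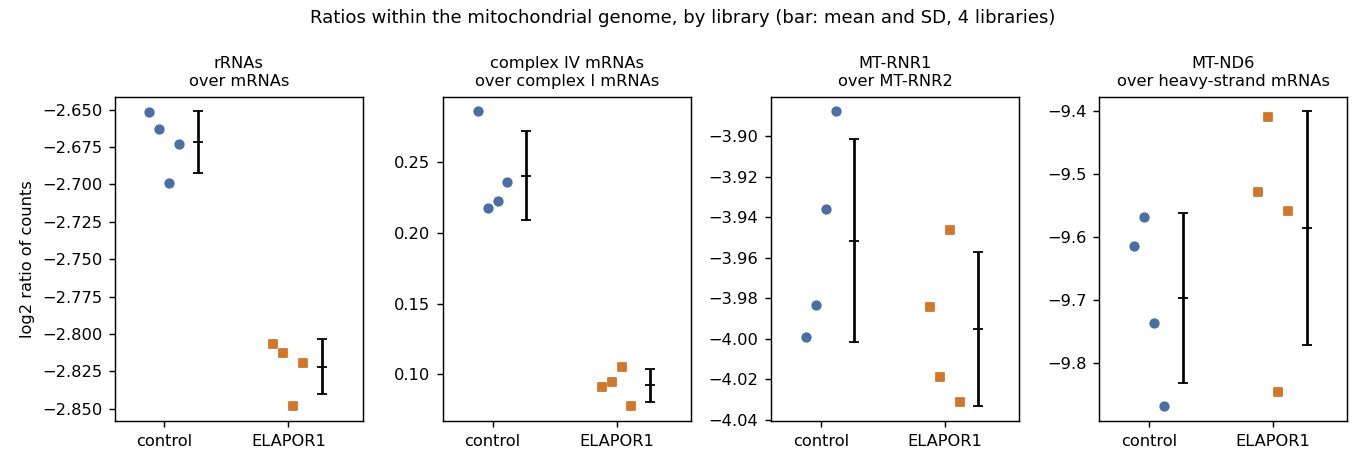
Log2 ratios of summed counts within each library for control (circles) and ELAPOR1 (squares), with mean and SD of 4 libraries. The rRNA to mRNA and the complex IV to complex I ratios separate the groups, while MT-RNR1 over MT-RNR2 and MT-ND6 over the heavy-strand mRNAs overlap.

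The make-up of the mRNA pool shifted accordingly. MT-CO1 made up 26.0, 24.1, 23.6 and 23.5% of all mitochondrial mRNA counts in control and 21.6 to 22.1% in the 4 ELAPOR1 libraries. MT-ND4 went from 17.3 ± 0.401% to 16.3 ± 0.180%, the only other member whose lower share separated the groups. MT-ND2 went from 7.70 ± 0.104% to 9.17 ± 0.152%, MT-ND5 from 3.30 ± 0.229% to 4.08 ± 0.0498%, MT-ND1 from 9.57 ± 0.340% to 10.2 ± 0.145% and MT-ATP6 from 5.17 ± 0.0909% to 5.54 ± 0.0840% (SD, n = 4 each), each without overlap. The other 7 mRNAs overlapped in their share. Since shares sum to a fixed total, a lower share of MT-CO1 shows unequal change and not a fall of its level.

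The pairs that share a joint mRNA were compared in the same way. MT-ATP8 over MT-ATP6 was at -2.67, -2.57, -2.84 and -3.35 in control and -2.99, -2.99, -2.88 and -2.74 in ELAPOR1 libraries, and MT-ND4L over MT-ND4 at -3.46, -3.44, -3.62 and -3.97 against -3.48, -3.46, -3.39 and -3.36 (log2 of counts). Both overlapped, and control replicate 4 was lowest in both. MT-ND5 over MT-CO1, chosen after their values were seen, differed by 0.46 between groups, and MT-ND2 over MT-CO1 by 0.40, neither with overlap.

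To compare levels between genes, CPM were divided by gene length in kilobases. Genes of a joint mRNA did not come out level on this scale. In control MT-ATP8 stood at 1338 and MT-ATP6 at 2881, and MT-ND4L at 1806 and MT-ND4 at 4757. Values per kilobase therefore need not be RNA levels, least of all for the short genes, and the cause was not tested. MT-CO2 was highest per length, at 7889 ± 211 CPM per kilobase in control, followed by MT-CO1 at 5982 ± 337, MT-CO3 at 4772 ± 97.8 and MT-ND4 at 4757 ± 84.2 (SD, n = 4 each). MT-CO3 and MT-ND4 did not differ beyond their spread. MT-ND1 stood at 3799 ± 118, MT-ATP6 at 2881 ± 48.8 and MT-ND2 at 2805 ± 56.4, the ranges of the last pair overlapping. MT-ND4L (1806 ± 270) overlapped MT-ND3 (1718 ± 90.0), and MT-CYB (1582 ± 28.9) overlapped MT-ATP8 (1338 ± 306). MT-ND5, at 691 ± 52.5, was the lowest mRNA of its strand, and MT-ND6 was lowest of all, at 87.3 ± 8.95 and 90.4 times below MT-CO2.

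In ELAPOR1 libraries MT-ND2 (3683 ± 19.7 CPM per kilobase) stood above MT-ATP6 (3403 ± 111) in every library, the reverse of their control order, and the other 11 mRNAs kept their rank by mean level. MT-ND3 and MT-CYB were level in ELAPOR1 libraries, at 1826 and 1824 CPM per kilobase with overlapping ranges, and stood in that order in 2 of 4 libraries. The rRNAs differed widely in counts per length for genes of a shared precursor. MT-RNR2 stood at 3589 ± 97.0 and MT-RNR1 at 379 ± 9.16 CPM per kilobase in control, a ratio of 9.47, and the ratio was 9.76 in ELAPOR1 libraries. How RNA was selected for the libraries is not given in the sources used here, so these values need not be rRNA levels in the cells.

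**Figure D4:**
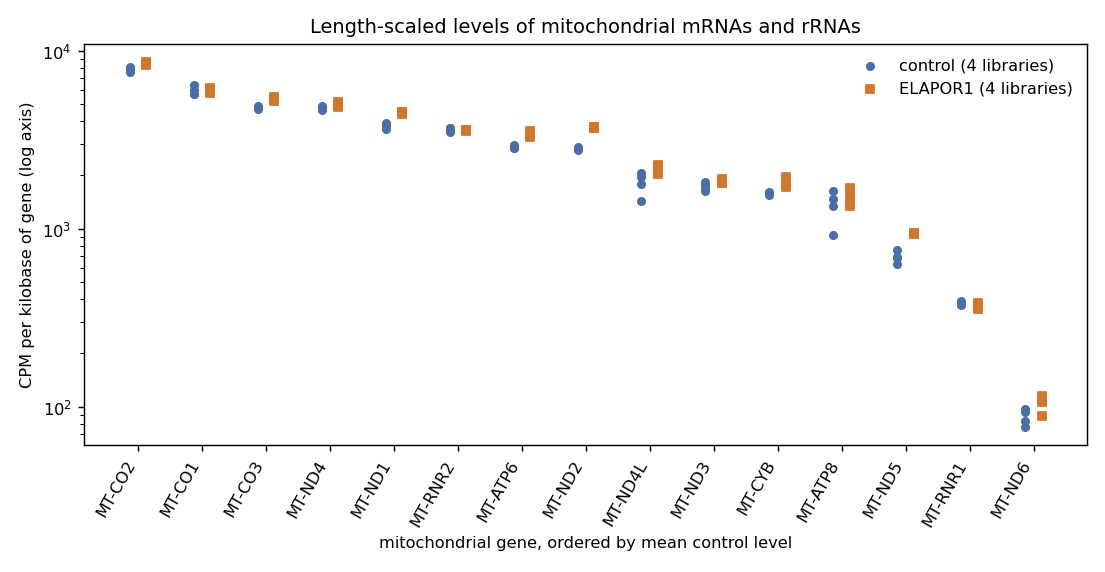
CPM per kilobase of gene (log axis) of mitochondrial mRNAs and rRNAs, ordered by mean control level, with 4 control libraries (circles) and 4 ELAPOR1 libraries (squares). Levels run from 7889 CPM per kilobase for MT-CO2 to 87.3 for MT-ND6 in control, and MT-ND2 passes MT-ATP6 in ELAPOR1 libraries.

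Of 394 nuclear pseudogene rows of mitochondrial genes, 3 had enough counts to be tested, and all lie close together on chromosome 1. MTND2P28 (chr1:629640-630683) is identical to MT-ND2 at 98.4% of 1042 aligned bases. It held 1055 to 1474 estimated counts in control and 1348 to 1731 in ELAPOR1 libraries, 2.55 and 2.59% of those of MT-ND2, and rose like it (log2 fold change 0.42, SE 0.10, adjusted p = 0.012). MTATP6P1 (chr1:633696-634376), 98.5% identical to MT-ATP6, held 9.83 and 9.32% as many counts as that gene and was not called (0.16, SE 0.074, adjusted p = 0.11). MTCO1P12 (chr1:631074-632616), 98.7% identical to MT-CO1, held 0.147 and 0.151% and was not called (0.031, SE 0.087, adjusted p = 0.80). RSEM divides reads that match both copies, and 8 of the 15 members with counts had values that were not whole numbers. Reads of the gene and of its copy therefore cannot be fully told apart. The share of the copy hardly differed between groups in these 3 pairs.

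Nuclear genes that act on mitochondrial RNA were taken from lists written for this comparison. Of 20 genes of transcription and genome maintenance, 8 were higher and 2 lower, with a median log2 fold change of 0.071. This share, 10 of 20 called, lay near the 44.7% of all tested genes. TFAM, which packages the genome and starts transcription, rose from 60.9 ± 3.80 to 69.1 ± 1.39 CPM (0.18, adjusted p = 0.0018). TFB2M, which opens the promoter with POLRMT, rose from 26.8 ± 2.15 to 30.7 ± 2.69 CPM (0.19, adjusted p = 0.022). Its ranges overlapped, with ELAPOR1 replicate 2 inside the control range. The elongation factor TEFM, which overlaps ADAP2, rose from 6.78 ± 0.295 to 8.39 ± 0.974 CPM (0.31, adjusted p = 0.028). POLRMT itself (0.043, adjusted p = 0.58) and MTERF3 of the termination factor family (0.050, adjusted p = 0.53) were not called. The largest changes were those of ATAD3B, a nucleoid-associated membrane ATPase with the near-identical neighbour ATAD3A between which reads may be split (0.46, adjusted p = 2.2e-07), and of POLG2, the accessory subunit of the DNA polymerase, which overlaps a pseudogene (-0.32, adjusted p = 0.0048).

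Of 25 genes of RNA processing, stability and decay, 7 were higher, 1 lower and 17 not called, so 32.0% passed, below the 44.7% of all genes. The largest rise was that of PNPT1, the polynucleotide phosphorylase of the mitochondrial RNA degradosome, from 82.7 ± 1.63 to 115 ± 1.32 CPM (0.48, SE 0.037, adjusted p = 1.6e-12). Its partner helicase SUPV3L1 was not called (-0.045, adjusted p = 0.51). ELAC2, which cuts tRNA 3′ ends, rose from 45.4 to 48.7 CPM in control to 59.9 to 63.3 CPM in ELAPOR1 libraries (0.41, SE 0.047, adjusted p = 8.3e-09).

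Of the 3 proteins of the complex that cuts tRNA 5′ ends, TRMT10C was lower (-0.14, adjusted p = 0.049), a call that the DESeq2 Wald test and limma-voom did not make. HSD17B10 (0.045, adjusted p = 0.49) and PRORP, listed as KIAA0391 (0.099, adjusted p = 0.29), were not called. The mRNA-stabilising pair was not called either, with LRPPRC at 332 ± 5.86 and 345 ± 6.17 CPM (0.057, adjusted p = 0.11) and SLIRP, which overlaps SNW1, at 0.055 (adjusted p = 0.44). FASTKD5, needed at junctions without a tRNA and overlapping UBOX5 (-0.013, adjusted p = 0.90), the RNA granule protein GRSF1 (-0.053, adjusted p = 0.31) and the poly(A) polymerase MTPAP (0.086, adjusted p = 0.32) were not called. Of 29 genes that modify tRNAs and rRNAs, 7 were higher and 4 lower, and the 37.9% called lay below the 44.7% of all tested genes. ALKBH7, a demethylase of precursor tRNA that overlaps PSPN (-0.59, adjusted p = 5.0e-07), and OSGEPL1, which modifies tRNAs beside the anticodon and overlaps ANKAR (-0.57, adjusted p = 3.3e-05), fell most among those with a mean of at least 5 CPM.

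The nuclear-encoded subunits of the same complexes were mostly lower where called. Of 76 tested subunits of complexes I, III, IV and the ATP synthase, 36 were called (47.4%), 5 higher and 31 lower, with a median log2 fold change of -0.087, whereas 10 of 13 mitochondrial mRNAs were higher. The size of this split moved with the removal of GC and length trends, a setting chosen after the data were seen. With these trends removed, 12 nuclear subunits were higher and 22 lower, with a median of -0.036, and 11 of 13 mitochondrial mRNAs were higher. The part of GC content and length in the split was not tested. In complex I, 3 of 37 were higher and 12 lower (median -0.070), led by NDUFB5, an accessory subunit (117 ± 4.89 and 94.1 ± 4.39 CPM, -0.31, adjusted p = 1.0e-07), and NDUFV2, an iron-sulfur subunit (160 ± 6.51 and 130 ± 3.77 CPM, -0.30, adjusted p = 1.6e-08). With the trends removed, complex I went to 8 higher and 7 lower, so no direction can be given for it.

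In complex III, 1 of 9 was higher and 5 lower (median -0.16), or 1 higher and 3 lower with the trends removed (median -0.062), led by UQCRB (-0.36, adjusted p = 7.7e-11) and the hinge protein UQCRH (-0.20, adjusted p = 5.0e-04). In complex IV, 1 of 12 tested subunits was higher and 8 lower (median -0.12), and 3 of 15 were too low to be tested. With the trends removed it had 2 higher and 7 lower (median -0.10). COX7C fell from 270 ± 16.4 to 199 ± 3.74 CPM (-0.44, adjusted p = 6.7e-12) and COX6C, which overlaps VPS13B, from 112 ± 6.97 to 83.4 ± 0.416 CPM (-0.43, adjusted p = 2.8e-10). In the ATP synthase, 6 of 18 were lower and 0 higher (median -0.060), or 5 lower and 1 higher with the trends removed (median -0.045), with ATP5MC2 of the rotor ring at -0.36 (adjusted p = 4.5e-10) and the membrane subunit ATP5MG at -0.24 (adjusted p = 9.1e-07). Leaving out control replicate 1 raised the subunits called lower from 31 to 42, and leaving out ELAPOR1 replicate 1 raised them to 34. The count was 28, 29 and 28 without control replicates 2, 3 and 4. It was 29, 26 and 28 without ELAPOR1 replicates 2, 3 and 4. The difference between the genomes was not tested, since the members were chosen with results known.

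**Figure D5:**
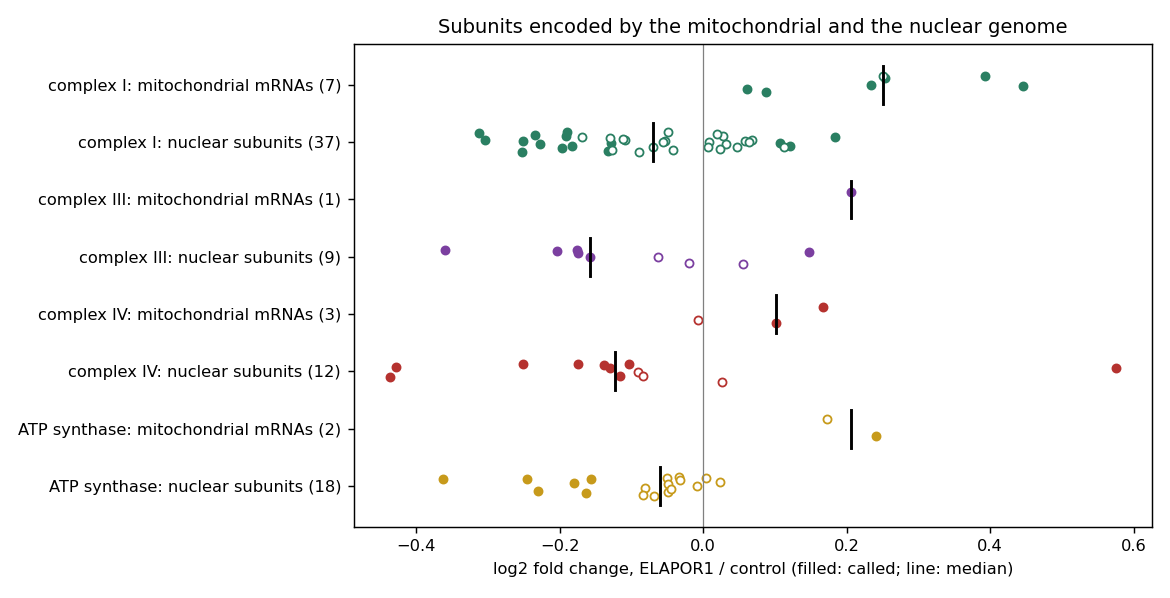
Log2 fold change of ELAPOR1 over control for subunits encoded by the mitochondrial and the nuclear genome, by complex, with a point per gene (filled where called), a line at the median and the number of tested genes in brackets. Mitochondrial mRNAs lie to the right, with medians from 0.10 to 0.25, and nuclear subunits spread around medians from -0.16 to -0.060.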

How the data were processed

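RNA of 8 libraries was sequenced, 4 per group as the labels give them. The authors deposited expected counts per gene, not scaled between libraries, of which 15.0% of nonzero values were not whole. Per the submitters' processing notes, cutadapt, STAR, RSEM and DESeq2 were used with hg38. Versions, annotation release, strand use and the selection of RNA for the libraries are not given in the sources used here. No other per-sample columns were present (0).

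Counts were rounded and all genes fitted together with edgeR 4.0.16 in R 4.3.3 (filterByExpr, TMM, robust glmQLFit and glmQLFTest, two-sided, no covariate), with Benjamini-Hochberg adjustment over 13860 genes and a threshold of 0.05. The standard error is the log2 fold change divided by the square root of F, and intervals use the test's degrees of freedom. CPM are counts per 1000000 scaled by TMM. Sums, shares and ratios of members carry no p-value. Depth was 13765509 to 18128757 counts per library, and MT-ND6, the lowest member with counts, held 646 to 963. The fit was tested on simulated counts.

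Members were chosen by symbol, and members, gene lists and named genes were chosen with earlier results of these data known. Named were all members, ELAPOR1, 16 nuclear genes of mitochondrial RNA metabolism, the 2 called genes of each list with the largest change and a mean of at least 5 CPM, and tested pseudogenes. Alternatives were DESeq2 size factors, total count and upper-quartile scaling, scaling without MT- rows, the DESeq2 1.42.0 Wald test, limma-voom (limma 3.58.1), other filters on low counts, no rounding, an adjusted p under 0.01, a block for the replicate number, leaving out libraries in turn and, added after the data were seen, removal of GC and length trends (natural splines, 5 degrees of freedom each; GC and length were known for 99.8% of tested genes). Positions, lengths and sequences are from GENCODE release 29. Figures were drawn with matplotlib 3.10.9.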

Additional observations from a re-analysis of the deposited data

Results flagged for a closer look

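In 2 of 52 groups of 4 libraries examined (CPM of the members, shares and ratios), the gap between an extreme library and its nearest neighbour, as a share of the range, passed Dixon's 95% critical value. Chance gives about 1 in 20 groups, here 2.6. MT-RNR2 stood at 5483 CPM in ELAPOR1 replicate 2 and at 5590 to 5603 CPM in the other ELAPOR1 libraries, inside the control range. The log2 ratio of MT-ND2 over MT-CO1 was -1.77 in control replicate 1 and -1.62 to -1.61 in the other control libraries, and all ELAPOR1 libraries lay higher, at -1.30 to -1.22. No cause of either gap was tested.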

How the results depend on the processing

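The count of mitochondrial mRNAs called higher was 9 to 11 under other scalings, filters and tests, 7 at an adjusted p under 0.01, and 7 to 10 with a library left out, with none called lower in any of these. The rRNA count was 0 in all of them. The median log2 fold change of the mRNAs was 0.18 to 0.24 with a library left out and 0.32 with GC and length trends removed, a choice made after the data were seen, and the cause of that shift was not tested. The rRNA to mRNA ratio differed by -0.16 to -0.14 with a library left out and by -0.16 per kilobase, and complex IV over complex I by -0.16 to -0.13 and by -0.13. The share of counts in rRNAs differed by -0.0012 to 0.010 percentage points with a library left out, so its sign is not fixed. With the replicate number as a block, 9 mRNAs were called, the call lost being MT-ND4 (adjusted p = 0.095). Libraries that share a number did not deviate together (r = -0.038 to 0.020), so they share only a number and were not taken as pairs. For the tRNAs the upper bound of 3 counts per library covers counting error only, and it bounds no tRNA level, since genes of their length were almost without counts. The part of depth in the missing calls of MT-ATP8 and MT-ND4L was not tested.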

Other observations

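Of 20 translation factors of mitochondria, 7 were higher and 4 lower (median log2 fold change 0.069). The share called was 55.0%, beside 44.7% of all tested genes, which were also called in both directions (22.6% higher, 22.1% lower). GFM1, the elongation factor that moves the ribosome along, rose from 79.7 ± 3.89 to 108 ± 2.70 CPM (SD over 4 libraries), and it overlaps LXN. Its change was 0.43 on the log2 scale (SE 0.041, adjusted p = 1.2e-10). RMND1, needed for mitochondrial translation, fell to 10.6 ± 0.364 CPM (SD, n = 4), against at least 13.1 CPM in control (-0.40, SE 0.090, adjusted p = 3.9e-04). The insertase OXA1L, which places newly made subunits in the inner membrane, was at -0.39 (adjusted p = 9.5e-09) and the elongation factor TUFM at 0.25 (adjusted p = 3.9e-07), both named after their values were seen.

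Of 20 regulators of mitochondrial biogenesis, 16 were tested, 5 were higher and 4 lower (median 0.048), so 56.2% of those tested were called, beside 44.7% of all tested genes. Without control replicate 3 the count was 3 higher and 2 lower, without ELAPOR1 replicate 3 it was 3 higher and 3 lower (median 0.026), and the median was 0.023 without control replicate 4, 0.026 with GC and length trends removed and 0.013 with at least 10 counts in every library. NR1D1, a clock repressor that overlaps THRA, fell from 15.5 ± 0.742 to 11.6 ± 0.107 CPM (-0.41, SE 0.084, edgeR adjusted p = 1.3e-04), and ESRRA, a nuclear receptor that acts with coactivators of the PGC-1 family and overlaps TRMT112, from 80.1 ± 3.04 to 61.0 ± 3.90 CPM (-0.39, SE 0.047, adjusted p = 1.8e-08). Complex II, which has no mitochondrially encoded subunit, had 1 of 4 genes higher and 2 lower, with SDHB at -0.20 (edgeR adjusted p = 9.8e-04) and SDHA at -0.13 (adjusted p = 0.0014).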
